A study of Mus musculus with 4 samples.

Results

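Leukocytes leave the blood by a sequence of contacts with the vessel wall, and 8 genes of that sequence are described here in circulating cells: Selplg, Cd44, Itgal, Itgb2, Itgb1, Itga4, Itgb7 and Itgam. They were taken by name as a set of adhesion genes, with earlier results of these data known, and are 8 of the 32287 features in the gene tables. The blood came from mice of strain C57BL/6J, 10 weeks old, that carried inoculated acute lymphoblastic leukaemia and received dasatinib, an inhibitor of tyrosine kinases. Blood was drawn 1 week after dasatinib was begun, when every mouse was in remission, and the drug was then given for a further 4 weeks. At day 100 after inoculation the mice were classed by outcome, 6 as cured and 6 as relapsed, so the groups Cured and Relapsed name what happened later and share strain, leukaemia, drug and time of sampling. Each group had 2 single-cell RNA libraries made from frozen, sorted live cells, and each library pooled 3 mice. There was no untreated group, and the drug dose and the genotype of the leukaemia are not given in the sources used here, although the gene tables carry features named BCR_ABL_1 and GFP_1.

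In the usual account, selectins on the vessel wall catch a flowing leukocyte by its glycoprotein ligands, and integrins then stop it. Selplg encodes PSGL-1, a mucin that binds P-selectin and other selectins once it has been glycosylated and sulphated. Cd44 encodes a receptor for hyaluronan that can also bear selectin ligands. Integrins are pairs of an alpha and a beta chain: Itgal (CD11a) and Itgam (CD11b) each pair with Itgb2 (CD18) to give LFA-1 and Mac-1, whose partners include ICAM-1. Itga4 pairs with Itgb1 to give VLA-4, which binds VCAM-1, or with Itgb7, which gives the receptor for the gut vessel addressin MAdCAM-1. Because the beta chains are shared, the RNA level of a subunit is not the level of any single heterodimer at the surface.

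The cells were placed in 7 classes by counts of marker genes, none of which is among the 8. Of 16157 barcodes, 15439 had at least 200 genes and at most 10% mitochondrial UMIs (unique molecular identifiers, each counting 1 captured RNA molecule). The classes held 11309 B cells, 145 CD4 T cells, 873 CD8 T cells, 741 NK cells, 83 classical monocytes, 222 non-classical monocytes and 987 neutrophils, and 1079 kept cells were in no class. Shares of cells with single gate markers describe the classes and do not test their names. Cd3e UMIs were in 93.8% of CD8 T cells and in 0% of NK cells, and Ncr1 UMIs in 80.2% of NK cells. Ace UMIs were in 82.0% of non-classical and 6.0% of classical monocytes, and Csf3r UMIs in 87.5% of neutrophils. Total UMIs per library ran from 7184045 to 10840397. The median per cell differed between classes, from 963 in neutrophils to 4855 in classical monocytes, and CD4 T cells and classical monocytes had as few as 23 and 11 cells in a library. Of 16026 distinct barcodes, 131 were in more than 1 library. Relapsed replicate 1 stood apart from the other libraries in red cell RNA: haemoglobin and Alas2 summed to 6345 CPM (the count scaled to 1e6 UMIs of the class in that library) in its B cells against 219 to 434 CPM in the other 3 libraries, and to 3742 and 3941 CPM in its CD8 T and NK cells against 2.35 to 5.97 CPM. The 5 T cell gate markers together summed to 107 to 134 CPM in NK cells, against 2986 to 3569 CPM in CD8 T cells, so T cell markers other than Cd3e were detected in NK cells. The replicates are pools of different mice, so the spread between replicates is that between pools.

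The genes lie on 6 chromosomes of the mouse build GRCm38, to which the deposited reads were aligned under its other name, mm10. Itgam (chromosome 7, 128062640 to 128118491, plus strand) and Itgal (chromosome 7, 127296260 to 127335138, plus strand) are on the same chromosome, as are Cd44 (chromosome 2, 102811141 to 102901665, minus strand) and Itga4 (chromosome 2, 79255426 to 79333123, plus strand). Selplg is at 113818536 to 113832644 of chromosome 5 (minus strand), Itgb2 at 77530252 to 77565708 of chromosome 10 (plus strand), Itgb1 at 128685654 to 128733200 of chromosome 8 (plus strand) and Itgb7 at 102215995 to 102231944 of chromosome 15 (minus strand). The annotation places Gm49368 over Itgam on the same strand, so counts of Itgam could have been split with it and are uncertain to that extent. Gm23731 lies opposite Cd44 and Cerkl opposite Itga4.

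RefSeq sequence before the annotated start was at hand for 5 of the 8 genes: Cd44, Itga4, Itgam, Itgb1 and Itgb7. It was searched on both strands for the letters GAGGAA (or TTCCTC), a core that PU.1, a myeloid and B lineage transcription factor, is known to bind, and for TGTGGT (or ACCACA), a core bound by RUNX factors. The 250 bases before the start are shown for the 3 genes that held the first motif, of which Itgam and Cd44 had their highest levels in myeloid cells and Itgb1 in NK cells. Sequences run 5′ to 3′ on the strand of the gene, build GRCm38.p6, and capitals mark GAGGAA or TTCCTC.
Itgam chr7:128062390-128062639, plus strand: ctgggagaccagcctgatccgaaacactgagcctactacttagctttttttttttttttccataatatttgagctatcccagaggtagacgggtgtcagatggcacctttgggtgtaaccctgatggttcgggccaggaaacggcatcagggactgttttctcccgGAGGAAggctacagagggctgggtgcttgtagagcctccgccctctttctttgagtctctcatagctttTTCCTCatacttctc
Cd44 chr2:102901666-102901915, minus strand: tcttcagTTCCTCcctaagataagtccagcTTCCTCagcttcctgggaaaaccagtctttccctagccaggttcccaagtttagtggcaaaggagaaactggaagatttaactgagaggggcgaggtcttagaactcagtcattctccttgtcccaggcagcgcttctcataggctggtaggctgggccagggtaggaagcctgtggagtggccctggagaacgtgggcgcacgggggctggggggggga
Itgb1 chr8:128685404-128685653, plus strand: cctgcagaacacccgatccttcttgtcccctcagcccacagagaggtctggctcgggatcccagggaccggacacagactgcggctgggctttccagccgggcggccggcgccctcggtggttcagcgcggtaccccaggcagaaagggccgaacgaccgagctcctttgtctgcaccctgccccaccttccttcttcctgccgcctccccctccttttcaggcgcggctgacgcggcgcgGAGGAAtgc
Itgam had 2 matches, starting 84 and 15 bases before the annotated start, Cd44 had 2, at 243 and 220 bases, and Itgb1 had 1, at 9 bases. Itga4 and Itgb7 had none of these letters in the window. Itga4 had the single match to TGTGGT, as ACCACA at 60 bases. Across 32851 RefSeq promoters, 23.3% held the first motif in the same 250 bases and 14.0% the second. The matches describe the letters only.

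Selplg had RNA in every library of every class. In neutrophils it was at 1407, 1445, 1340 and 1321 CPM in Cured replicate 1, Cured replicate 2, Relapsed replicate 1 and Relapsed replicate 2, the order used for 4 values in the rest of the text. NK cells had 1186, 1393, 958 and 1049 CPM, which overlapped the neutrophils. B cells had 66.2, 64.0, 41.7 and 61.2 CPM, below every other class in every library. T cells and monocytes lay between, with means of 491 ± 105 (SD, n = 4 here and for the means below) in CD8 T cells, 473 ± 161 in CD4 T cells, 386 ± 63.1 in non-classical and 372 ± 101 CPM in classical monocytes, each overlapping its neighbour. Counted per cell instead of per UMI, NK cells came first with 2.28 ± 0.559 Selplg UMIs per cell and neutrophils, whose cells held few UMIs, had 1.52 ± 0.197, after CD8 T cells (1.84) and classical monocytes (1.76).

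Cd44 separated myeloid cells from lymphocytes. Neutrophils had 793, 693, 1126 and 711 CPM, above all 4 values of both monocyte classes. Non-classical monocytes had 381, 336, 366 and 405 CPM and classical monocytes 345, 211, 517 and 228 CPM, so these 2 classes overlapped. NK cells had 67.1, 73.7, 136 and 65.9 CPM, less than any monocyte value and more than any B cell value. The lowest class was CD8 T cells with 15.2, 18.4, 21.5 and 14.9 CPM, and CD4 T cells had 9 Cd44 UMIs in all 4 libraries and none in Relapsed replicate 2. Per cell the order of the myeloid classes changed, with 1.07 to 2.30 UMIs in the 4 libraries of classical monocytes, a mean of 0.904 ± 0.146 in neutrophils and one of 0.893 ± 0.166 in non-classical monocytes.

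**Figure D1:**
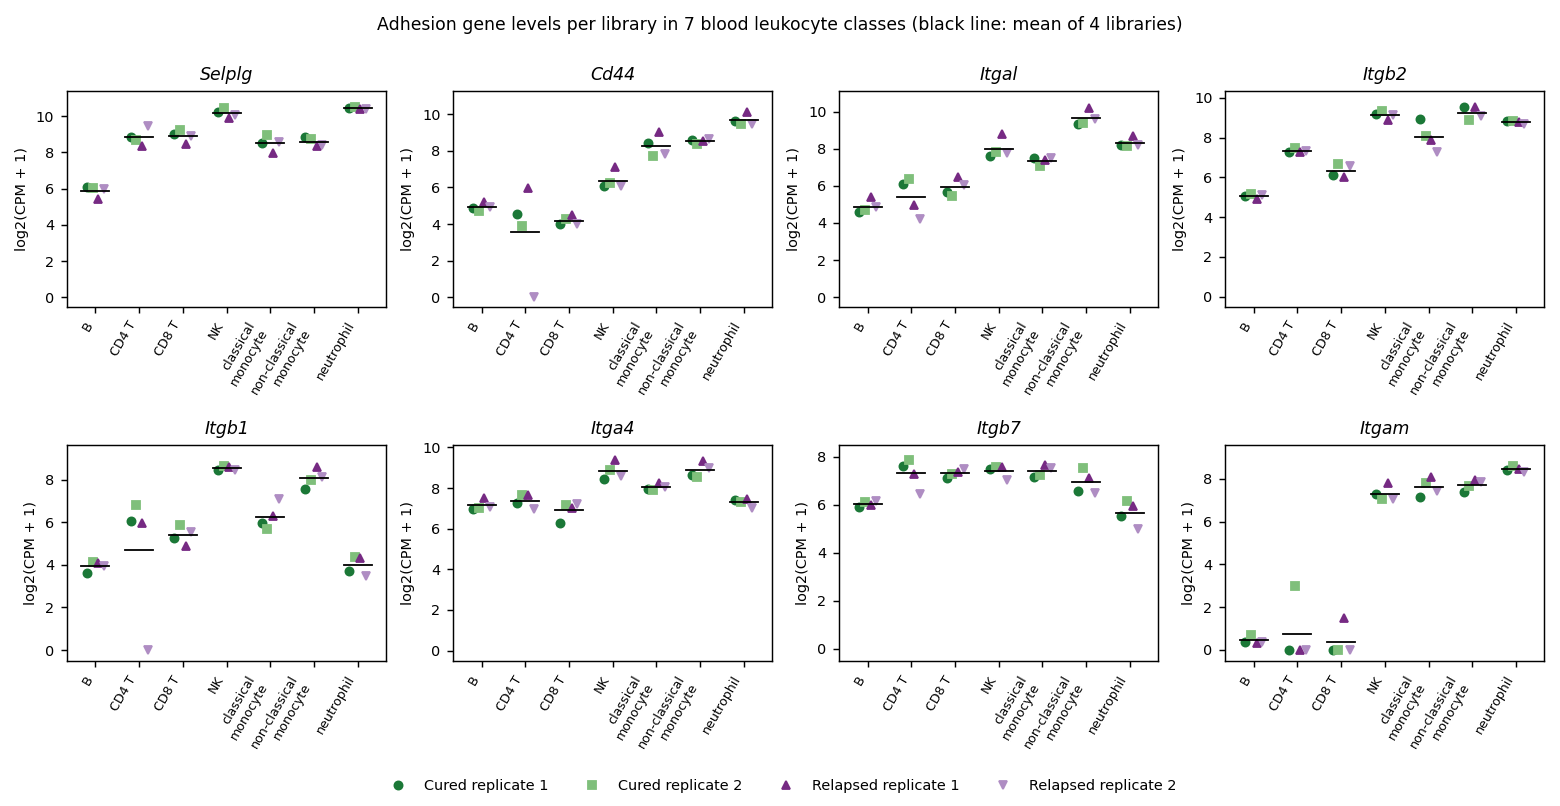
Level of each of the 8 genes, as log2(CPM + 1), in 7 classes of blood leukocytes (x axis), with 1 point per library and a black line at the mean of the 4 plotted values. Itgam is at 6.91 CPM or less in every library of B and T cells and at 132 CPM or more in every library of the other 4 classes. Selplg is lowest in B cells at 41.7 to 66.2 CPM.

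Itgb2, the chain that LFA-1 and Mac-1 share, was high in NK cells and non-classical monocytes. NK cells had 582, 658, 480 and 567 CPM and non-classical monocytes 739, 467, 748 and 540 CPM, and the 2 ranges overlapped. Neutrophils were narrow at 462, 458, 437 and 415 CPM. Classical monocytes spread from 152 to 487 CPM on 18 to 37 UMIs a library. CD4 T cells (155, 180, 153 and 157 CPM), CD8 T cells (68.1, 99.6, 64.5 and 95.6 CPM) and B cells (32.6, 34.6, 28.8 and 33.2 CPM) followed in that order with no overlap between neighbours.

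Itgal, the alpha chain of LFA-1, was highest in non-classical monocytes at 643, 678, 1170 and 785 CPM, above every value of every other class. Neutrophils (286 to 413 CPM) and NK cells (196 to 435 CPM) overlapped each other. Classical monocytes had 183, 131, 169 and 177 CPM, and CD8 T cells 50.2, 43.3, 89.6 and 65.7 CPM. B cells were lowest in the mean with 29.1 ± 8.51 CPM, but overlapped CD4 T cells, which had only 1 to 12 UMIs a library. In B cells, CD8 T cells, NK cells, non-classical monocytes and neutrophils the highest of the 4 values was that of Relapsed replicate 1.

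Itgam, the alpha chain of Mac-1, was the gene with the sharpest split. Neutrophils had 335, 392, 346 and 322 CPM, non-classical monocytes 167, 201, 244 and 230 CPM, classical monocytes 142, 226, 270 and 169 CPM, and NK cells 154, 134, 224 and 132 CPM. The other classes were near 0, with 10 UMIs among 11309 B cells, 1 among 873 CD8 T cells and 1 among 145 CD4 T cells. A UMI of Itgam was seen in 24.7% of NK cells and in 0.0796% of B cells, whose median depth was 2125 UMIs against 1804 in NK cells. The source of the UMIs in B cells was not tested. For thinning, cells with fewer than 1000 UMIs were left out and the rest cut to 1000, which kept 678 of 741 NK cells and 10743 of 11309 B cells. The shares were then 12.2% and 0.0345% (means of 4 libraries). Per UMI of the class, Itgam was 514 times as frequent in NK as in CD8 T cells, with an exact 95% interval of 91.3 to 20371 that covers counting error only and rests on the 1 UMI in CD8 T cells.

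The 2 alpha chains were then set against each other as the share of Itgal among Itgal and Itgam UMIs. Each molecule was counted from its 5′ end, so no value was divided by gene length. The share was 98.6% in B cells and 99.5% in CD8 T cells (exact 95% intervals 97.4% to 99.3% and 97.1% to 99.99%). NK cells were at 62.2% (58.2% to 66.1%), non-classical monocytes at 79.0% (75.5% to 82.2%), neutrophils at 48.8% (45.2% to 52.5%) and classical monocytes at 43.4% (35.2% to 51.9%). Within each library the share was higher in non-classical than in classical monocytes, at 79.4%, 77.1%, 82.8% and 77.3% against 56.3%, 36.7%, 38.5% and 51.2%.

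**Figure D2:**
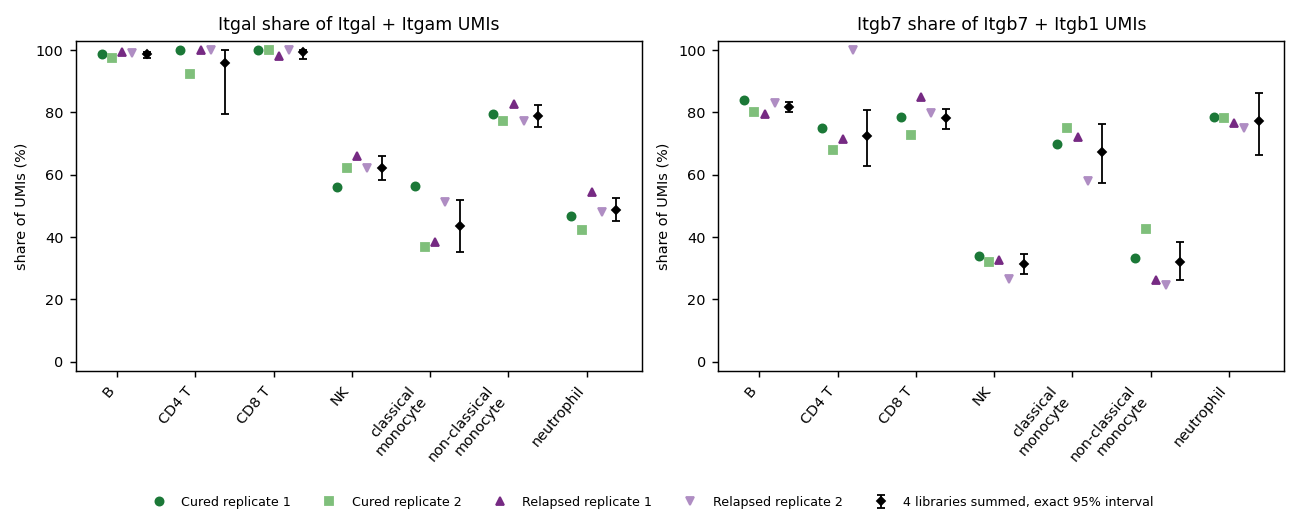
Share of Itgal among Itgal plus Itgam UMIs (left) and of Itgb7 among Itgb7 plus Itgb1 UMIs (right), in percent, per class. Coloured points are libraries, and black diamonds sum the 4 libraries with exact 95% intervals; on the right NK cells (31.2%) and non-classical monocytes (32.1%) lie below the other 5 classes.

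Itga4, the alpha chain of VLA-4, varied least among the integrin alpha genes. Non-classical monocytes had 405, 371, 650 and 505 CPM and NK cells 344, 472, 675 and 388 CPM, and these overlapped. Classical monocytes had 244, 240, 304 and 262 CPM. CD4 T cells, neutrophils, B cells and CD8 T cells had means between 124 and 169 CPM and each overlapped the next. Itga4 was the member with RNA in the largest share of B cells, 24.6%, against 12.3% for Selplg and 13.1% for Itgb7.

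Its 2 beta partners went different ways. Itgb1 was at 355, 404, 390 and 355 CPM in NK cells and 191, 251, 390 and 275 CPM in non-classical monocytes, but at 12.3, 19.6, 18.8 and 10.2 CPM in neutrophils (17 UMIs in all) and 11.2, 16.8, 16.3 and 14.3 CPM in B cells. Itgb7 was more even: NK cells, classical monocytes, CD4 and CD8 T cells had means of 173, 171, 169 and 160 CPM and all overlapped in that order, while B cells had 58.9, 67.8, 62.7 and 70.3 CPM and neutrophils 45.0, 70.5, 61.6 and 30.7 CPM. The share of Itgb7 among Itgb7 and Itgb1 UMIs was therefore 31.2% (28.0% to 34.6%) in NK cells and 32.1% (26.2% to 38.4%) in non-classical monocytes, but 67.3% (57.3% to 76.3%) in classical monocytes, 78.1% (74.8% to 81.2%) in CD8 T cells and 81.8% (80.0% to 83.4%) in B cells. In NK cells it was 33.9%, 32.1%, 32.6% and 26.7%, and in CD8 T cells 78.6%, 72.7%, 85.0% and 79.7%, so every NK value lay below every CD8 value.

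**Figure D3:**
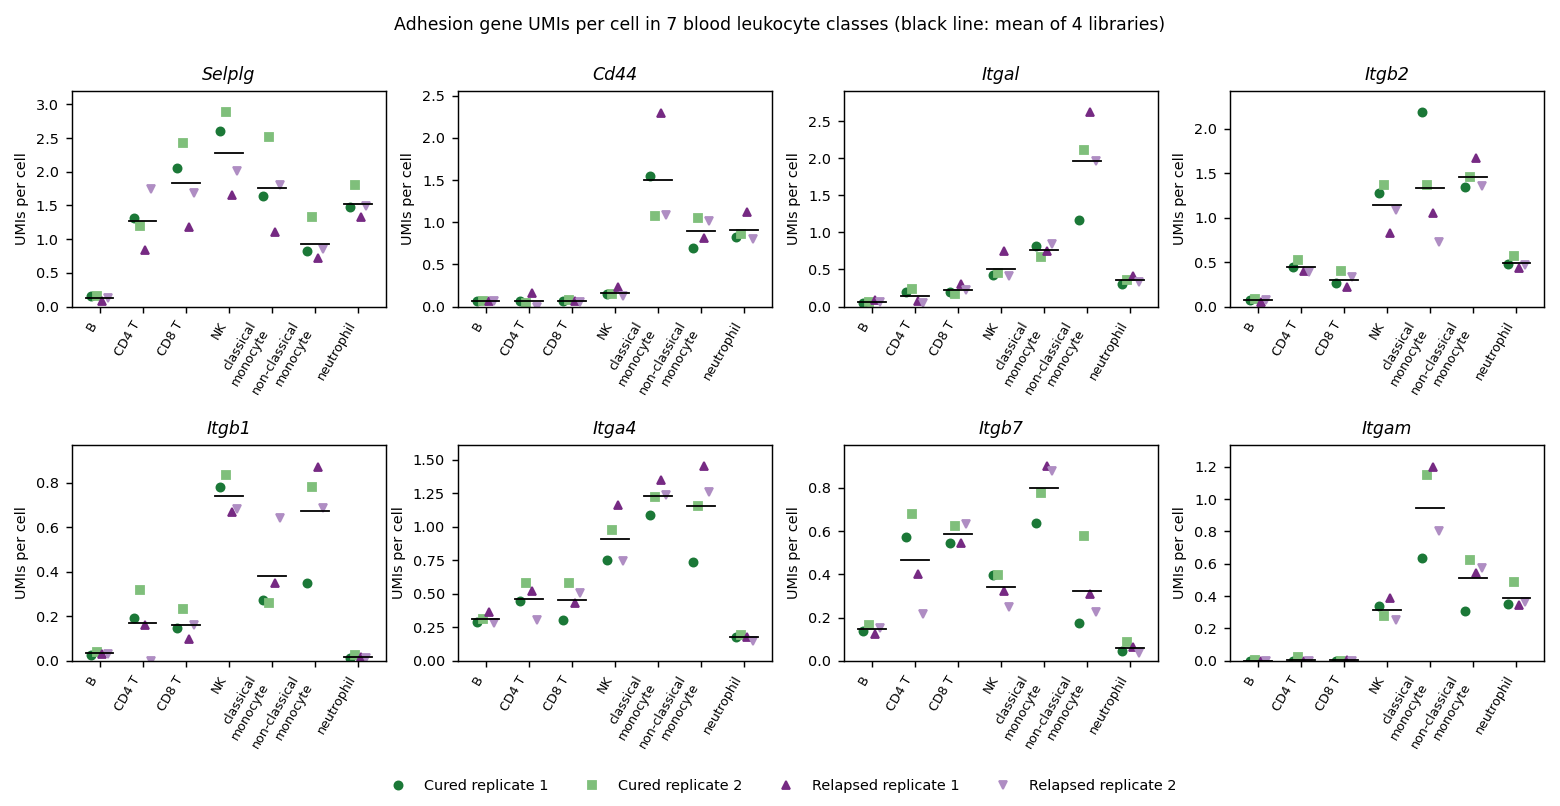
Mean UMIs per cell of each gene (y axis, from 0) in the 7 classes, with 1 point per library and a black line at the mean. On this scale classical monocytes have the highest mean for Cd44, Itgam (0.946), Itga4 (1.23) and Itgb7 (0.799), which they do not have in CPM.

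Classes of the same libraries were compared with edgeR's quasi-likelihood test on UMIs summed per library and class, with the library as a block and Benjamini-Hochberg adjustment over all genes tested. The adjusted p-values below are from that test, a call is an adjusted p under 0.05, fold changes are log2 after TMM scaling, and values after ± beside them are standard errors. The test blends each gene's spread between libraries with a spread shared over genes. The median weight of the shared part (prior degrees of freedom) was infinite for CD8 against CD4, NK against CD8 and B against CD8 T cells. It was infinite too for Cured against Relapsed in CD8 T cells. For Cured against Relapsed it was 854 in classical monocytes and from 7.22 (B cells) to 49.7 (NK cells) in the remaining classes. It was 136, 74.8 and 47.4 for the CD8 T, NK and B cell states below. For neutrophils and non-classical monocytes against classical monocytes it was 53.2 and 39.3, and for the interactions at least 59.7. In all of these the p-values rest largely on the shared spread and do not measure that of the gene between pools. With library totals in place of TMM, an alternative chosen after seeing the data, the median over all genes moved to 0.66 for NK against CD8 T cells, to 0.28 for B against CD8 T cells, to -0.19 for CD8 against CD4 T cells, to 0.10 for non-classical and to -0.37 for neutrophils against classical monocytes. The split of higher and lower calls moved with it, from 1090 and 1180 to 3465 and 489 for NK against CD8, from 2239 and 2192 to 3461 and 1566 for B against CD8, from 167 and 54 to 69 and 128 for CD8 against CD4, and from 1046 and 1034 to 802 and 1280 for neutrophils against classical monocytes. The same split went from 319 and 260 to 361 and 216 in monocytes, from 171 and 120 to 237 and 80 for the CD8 T cell states below, and from 38 and 19 to 23 and 23 for the B cell states. CPM levels use class totals. Without Relapsed replicate 1, the library with red cell RNA, every call of a member in these comparisons between classes and states remained past the threshold.

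Itgam entered the test only through its NK cell counts and is given above by those counts. The count filter of this comparison is set on the sums of both classes. Cd44 would not have passed it on its CD8 T cell counts alone, and is also given above by levels. It did pass the filter of the Cured against Relapsed fit in CD8 T cells. NK cells differed from CD8 T cells in all other members. All of these were higher except Itgb7, which was lower, where 38.7% of 5859 genes tested were called. Itgb1 was higher by 2.47 ± 0.13 on the log2 scale (adjusted p = 5.73e-79) and Itgb2 by 2.18 ± 0.11 (adjusted p = 8.35e-93). Itgal (1.44), Itga4 (1.26) and Selplg (0.59) were higher with adjusted p from 1.39e-33 to 1.09e-17. Itgb7 was lower by TMM (log2 fold change -0.53 ± 0.12, adjusted p = 4.78e-05), but 0.12 with library totals (adjusted p = 0.357), so its direction depended on the scaling, and its CPM overlapped.

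B cells differed from CD8 T cells in 6 of 7 genes tested, where 45.7% of 9699 genes were called. Selplg was lower by the widest margin, at -3.30 ± 0.07. Itgb1 (-1.83), Itgb2 (-1.57), Itgb7 (-1.52) and Itgal (-1.32) were lower too, with adjusted p from 6.18e-62 to 5.28e-20. Cd44 was higher (0.52 ± 0.20, adjusted p = 0.0227), a call that was lost without Cured replicate 1 (0.46, adjusted p = 0.12), without Relapsed replicate 2 (0.46, adjusted p = 0.0879) and with no library block (0.54, adjusted p = 0.0591). Itga4 was at -0.03 ± 0.09 and did not pass. Itgam was under the count filter in this comparison.

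CD8 and CD4 T cells differed in 1 of 6 genes tested, where 5.17% of 4273 genes were called. That gene was Itgb2, lower in CD8 T cells (-0.77 ± 0.23, adjusted p = 0.0216). The call was lost with no count filter (-0.61, adjusted p = 0.302), after thinning (-0.88, adjusted p = 0.168), and without Cured replicate 1 (-0.70, adjusted p = 0.241) or Cured replicate 2 (-0.83, adjusted p = 0.102). Selplg was at 0.36 ± 0.14 (adjusted p = 0.124), and at 0.50 (adjusted p = 0.0202) without Relapsed replicate 2.

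In the comparison of non-classical with classical monocytes, Itgb1 would not have passed the count filter on its classical monocyte counts alone, so it is given by levels. It was at 191 to 390 CPM in non-classical and 51.0 to 135 CPM in classical monocytes. Non-classical monocytes were higher than classical monocytes in Itgal, Itgb2 and Itga4 and lower in no member, where 26.4% of 2191 genes were called. Itgal rose by 2.29 ± 0.20 (adjusted p = 3.22e-12), Itgb2 by 1.17 ± 0.20 (adjusted p = 1.41e-05) and Itga4 by 0.82 ± 0.19 (adjusted p = 0.000963). Itga4 did not pass after thinning (0.52, adjusted p = 0.277), and Itgb1 was then under the filter. Cd44 (0.25 ± 0.21), Selplg (-0.05 ± 0.19), Itgb7 (-0.43 ± 0.28) and Itgam (0.01 ± 0.23) did not pass.

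The comparison of neutrophils with classical monocytes has its own filter cutoff, set on the sums of these classes, and Itgb1 passed it only through classical monocytes. It is given by levels, 10.2 to 19.6 CPM in neutrophils and 51.0 to 135 CPM in classical monocytes. Neutrophils differed from classical monocytes in all other members but Itga4. However, 71.4% of 2913 genes did so, and the members' share is near that background. Selplg (2.21 ± 0.14), Cd44 (1.76 ± 0.16), Itgal (1.33 ± 0.21), Itgam (1.11 ± 0.20) and Itgb2 (1.09 ± 0.19) were higher, with adjusted p from 1.84e-20 to 2.23e-06. Itgb7 was lower (-1.33 ± 0.30, adjusted p = 9.25e-05), and did not pass after thinning (-0.81, adjusted p = 0.23), which kept 442 of 987 neutrophils. Itga4 was at -0.40 ± 0.21 (adjusted p = 0.0911) and passed with library totals (-0.79, adjusted p = 0.00114).

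CD8 T cells were divided by whether a cell had a UMI of Ccl5, a chemokine gene that memory and effector CD8 T cells transcribe and naive cells largely do not. There were 291 Ccl5-positive cells with a median of 4277 UMIs and 582 Ccl5-negative cells with a median of 3405 UMIs. Itgb1 and Cd44 passed the count filter only through Ccl5-positive cells, so they are given by levels and not as test results. Of the other genes tested, Itgb2 and Itga4 were higher in Ccl5-positive cells and none was lower, where 6.9% of 4220 genes were called. Itgb1 was at 63.2, 117, 43.0 and 126 CPM with Ccl5 and 21.8, 18.2, 20.1 and 4.55 CPM without it. Every Ccl5-positive value was above every Ccl5-negative value.

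Cd44, which is used as a protein marker of antigen-experienced T cells, was at 28.1, 37.3, 43.0 and 26.1 CPM with Ccl5 and 7.26, 5.47, 8.60 and 9.10 CPM without it. These levels rest on 41 and 15 UMIs, and the gene was under the filter after thinning. Itgb2 was at 82.0, 146, 105 and 174 CPM against 59.6, 67.5, 40.1 and 54.6 CPM (1.00 ± 0.19, adjusted p = 3.7e-05). Itga4 was at 86.7, 218, 134 and 256 CPM against 69.7, 94.9, 126 and 88.7 CPM (0.75 ± 0.17, adjusted p = 0.000482). The Itga4 values overlapped between states, and its call was lost without Relapsed replicate 2 (0.53, adjusted p = 0.11) and with no library block (0.77, adjusted p = 0.254).

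After thinning to equal depth, Itgb2 (1.41, adjusted p = 0.00299) and Itga4 (1.22, adjusted p = 0.00144) still passed. Selplg was higher in all 4 libraries but missed the threshold (0.29 ± 0.10, adjusted p = 0.0563), and passed with library totals (0.40, adjusted p = 0.00284) and with DESeq2 size factors (0.31, adjusted p = 0.0397). Itgal (0.40 ± 0.23) and Itgb7 (-0.27 ± 0.15) did not pass, and Itgal was at -0.23 after thinning. The share of Itgb7 among Itgb7 and Itgb1 UMIs was 62.3% (56.4% to 67.9%) with Ccl5 and 90.7% (87.2% to 93.5%) without it, and it was lower with Ccl5 in each of the 4 libraries.

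**Figure D4:**
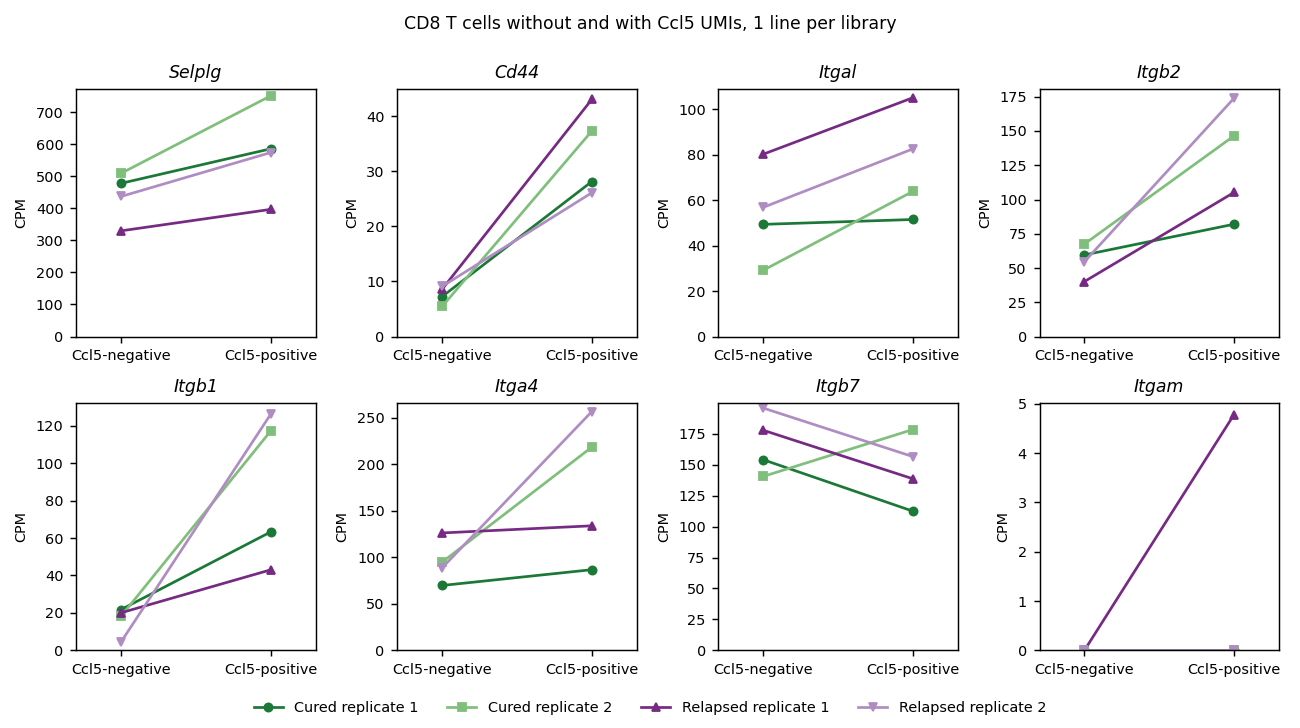
CPM of the 8 genes (y axes, from 0) in CD8 T cells without and with Ccl5 UMIs, with 1 line per library. Itgb1, Itgb2, Cd44, Itga4, Itgal and Selplg are higher with Ccl5 in all 4 lines, whereas Itgb7 is lower in 3 and higher in 1.

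Among B cells, 1735 with Cd93 or Vpreb3 UMIs, genes of immature B cells, were compared with 3608 with Fcer2a UMIs, a gene of mature follicular B cells. This left out 1854 cells with both and 4112 with neither. None of 7 genes passed edgeR's test, where 0.724% of 7876 genes were called, and an unadjusted p below 0.05 was reached by 637 of them. The largest difference was Cd44 at -0.23 ± 0.18 (adjusted p = 0.818). In NK cells, 433 with Klrg1, S1pr5 or Cma1 UMIs were set against 75 with Cd27, Xcl1 or Ltb UMIs, leaving out 118 with both and 115 with neither. None of the 8 genes passed edgeR's test, where 4.08% of 2033 genes were called and 268 reached an unadjusted p below 0.05. With no count filter Selplg (0.62, adjusted p = 0.0347) and Itgb2 (0.86, adjusted p = 0.0124) passed. Itgam, whose protein rises as mouse NK cells mature, was at 148, 146, 222 and 151 CPM in the first set and 0, 42.2, 217 and 35.2 CPM in the second (1.11 ± 0.41, adjusted p = 0.126). The second set held 0, 2, 10 and 2 Itgam UMIs, and without Relapsed replicate 1 the difference passed at 2.25 (adjusted p = 0.0499).

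The comparison for which the samples were collected asked whether blood cells of mice that would be cured differed from those of mice that would relapse. None of the 8 genes was called in any class by edgeR with 2 libraries against 2, and a single value tested by exact permutation could not go below 0.333 (2-sided). The share of all genes called was 0% of 10204 in B cells, 0% of 1083 in CD4 T cells, 0.437% of 5492 in CD8 T cells, 0% of 4546 in NK cells, 0.757% of 1453 in classical monocytes, 0.0818% of 2445 in non-classical monocytes and 0% of 2637 in neutrophils. An unadjusted p below 0.05 was reached by 897 genes in B cells, 53 in CD4 T cells, 317 in NK cells and 119 in neutrophils, and DESeq2 called 26 genes in B cells and 0 in the other 3 of these classes. DESeq2 called none of the members.

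Itgal was lower in Cured than in Relapsed libraries in the 6 classes where it was tested, without passing the test in any. In CD4 T cells, where it was under the count filter, the Cured values were the higher ones. They were 66.3 and 82.9 CPM (9 and 12 UMIs) against 30.7 and 17.5 CPM (2 and 1 UMIs) in Relapsed libraries. In CD8 T cells the values were 50.2 and 43.3 CPM in Cured and 89.6 and 65.7 CPM in Relapsed libraries (log2 fold change -0.77 ± 0.26, adjusted p = 0.189). The groups did not overlap there, nor in B cells (22.7 and 24.6 against 41.5 and 27.5 CPM, -0.53 ± 0.22, adjusted p = 0.563). In NK cells they did overlap (196 and 221 against 435 and 216 CPM, -0.66 ± 0.25, adjusted p = 0.648). Classical monocytes (-0.24), non-classical monocytes (-0.54) and neutrophils (-0.31) had the same sign, but in classical monocytes the highest value was that of Cured replicate 1 (183 CPM). These classes came from the same 4 libraries and are not independent of each other.

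Selplg went the other way in 6 of 7 classes, again without passing. Its log2 fold change was 0.32 in B cells, 0.36 in CD8 T cells, 0.32 in NK cells, 0.49 in classical and 0.38 in non-classical monocytes and 0.10 in neutrophils, and -0.26 in CD4 T cells, with adjusted p from 0.531 to 0.997. Itga4 was lower in Cured B cells (-0.32), CD8 T cells (-0.41), NK cells (-0.41), classical (-0.22) and non-classical monocytes (-0.58), and at 0.06 and 0.08 in CD4 T cells and neutrophils. Cd44 was negative in all 6 classes tested, from -0.51 in NK cells to -0.15 in non-classical monocytes. Itgb2 was within 0.20 of 0 in 6 classes and at 0.85 ± 0.34 in classical monocytes (adjusted p = 0.378), where Cured replicate 1, with 11 cells, had 487 CPM and the other libraries 152 to 269 CPM. Itgb1, Itgb7 and Itgam had no common sign over the classes in which they were tested.

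The values of the 2 groups did not overlap for 4 of 7 members tested in B cells (background 45.3% of genes), 1 of 4 in CD4 T cells (33.2%), 3 of 7 in CD8 T cells (38.6%), 2 of 8 in NK cells (37.8%), 3 of 7 in classical monocytes (36.9%), 5 of 8 in non-classical monocytes (31.5%) and 3 of 7 in neutrophils (30.8%). The count furthest above its background was that of non-classical monocytes, and with 4 to 8 genes a class these counts were not tested.

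Relapsed replicate 1 had the highest value of the 4 for Itgal in 5 of 7 classes, for Itga4 in 5 of 7, for Cd44 in 5 of 6 and for Itgam in 3 of 4, and the lowest for Selplg in 6 of 7 and for Itgb2 in 4 of 7 (classes with at least 20 UMIs of the gene). Genes outside the set did so too. Among 1430 genes tested in B, CD8 T, NK, non-classical monocyte and neutrophil classes, 76 (5.31%), Itgal among them, were highest in Relapsed replicate 1 in all 5, and 90 (6.29%) were lowest there in all 5, against 0.0699% to 1.12% for each of the other libraries.

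Without Relapsed replicate 1, Itgal was at -0.23 in B cells, -0.51 in CD8 T cells, -0.09 in NK cells, -0.25 in classical monocytes, -0.27 in non-classical monocytes and -0.07 in neutrophils. Cd44 was then at 0.13 in CD8 T cells, 0.06 in NK cells, 0.18 in classical monocytes and 0.03 in neutrophils, the opposite sign to that with all 4 libraries. Itga4 was then at -0.08 in B cells and 0.04 in NK cells, but still at -0.47 in CD8 T cells and -0.43 in non-classical monocytes. Selplg was at 0.08 in B cells and 0.18 in CD8 T cells, but moved little in NK cells (0.26) and non-classical monocytes (0.33). Without Relapsed replicate 2, which leaves Relapsed replicate 1 as the lone relapsed library and assumes that it varies like the others, Itgal passed in B cells (-0.80, adjusted p = 0.0109), CD8 T cells (-1.01, adjusted p = 0.0116) and NK cells (-1.09, adjusted p = 2.2e-05). Itga4 then passed in B cells (-0.53, adjusted p = 0.0124) and NK cells (-0.75, adjusted p = 0.00121), and Selplg in B cells (0.64, adjusted p = 0.0149). The count of all genes called rose at the same time to 1662 in B cells, 229 in CD8 T cells and 196 in NK cells.

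Red cell RNA and depth moved with that library. A red cell UMI was seen in 13.4% of its B cells, 16.2% of its CD8 T cells and 10.6% of its NK cells, against at most 2.26% in any other library of these classes. Over the cells without any red cell UMI, a check added after seeing the data, Itgal in Relapsed replicate 1 was at 41.9 CPM in B cells, 94.3 CPM in CD8 T cells and 420 CPM in NK cells, close to the values over all cells (41.5, 89.6 and 435 CPM). Its median UMIs per cell were the lowest of the 4 libraries in B cells (1847 against 2025 to 2341), CD8 T cells (3252 against 3362 to 3846.5) and NK cells (1556 against 1777 to 2053). After thinning to equal depth Itgal was at -0.59 in B cells, -0.60 in CD8 T cells, -0.96 in NK cells, -0.52 in non-classical monocytes and -0.34 in neutrophils, without passing.

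**Figure D5:**
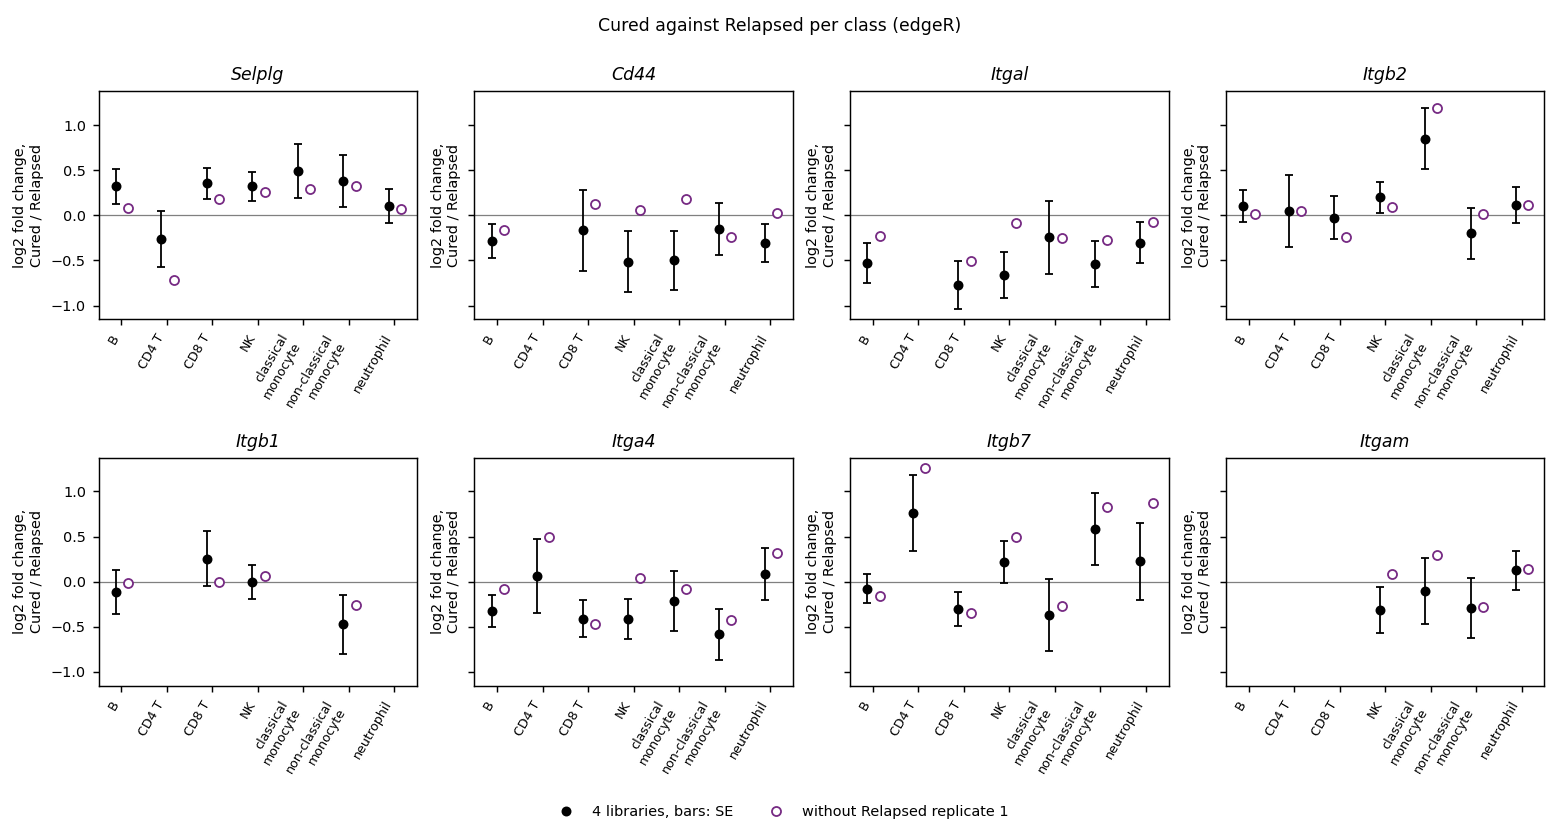
Log2 fold change of Cured over Relapsed (y axis) per class for each gene where it passed the count filter: black points are edgeR estimates from 4 libraries with their SE, open points the estimate without Relapsed replicate 1. Itgal is below 0 in all 6 classes tested and moves toward 0 without that library in 5 of them, from -0.66 to -0.09 in NK cells.

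Whether the difference between groups itself differed between classes was tested as an interaction. No member passed between CD8 and CD4 T cells (0% of 4273 genes called), NK and CD8 T cells (0.0171% of 5859) or neutrophils and classical monocytes (0.137% of 2913). The largest estimate was Itgal between CD8 and CD4 T cells, at -2.50 (adjusted p = 0.932), where the Relapsed CD4 T cells had 2 and 1 UMIs.

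Genes that act with the 8 were described from 5 lists: 12 other integrin subunits, 15 genes of integrin activation from inside the cell, 11 of selectin ligand glycosylation and sulphation, 10 membrane linkers, sheddases and other sialomucins, and 10 immunoglobulin-family partners. None of their genes was called between Cured and Relapsed in any class. Between NK and CD8 T cells, 5 of the 12 other integrin subunits had counts enough for a test, and Itgax, Itga2 and Itgae had them through 1 of the 2 classes only, so they are given by levels. Itgax (CD11c, a further partner of Itgb2) was at 107 ± 27.3 CPM in NK and 3.64 ± 2.72 CPM in CD8 T cells, Itga2 (the alpha chain of a collagen receptor and of the CD49b antigen) at 55.96 to 101 against at most 2.17 CPM, and Itgae (CD103, a partner of Itgb7) at 1.49 ± 1.74 against 22.6 ± 8.41 CPM.

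Of 14 activation genes tested in NK against CD8 T cells, 3 were higher and 5 lower, against 38.7% of all genes called, and the median was 0.11 against 0.02 for all genes. Rap1b, a GTPase that switches integrins on, was higher by 1.15 ± 0.09 and Tln1 (talin, which binds beta chain tails) by 0.93 ± 0.11, while Rasgrp1, an exchange factor for Ras, was lower (-1.21 ± 0.21). The sialyltransferases St3gal6 (1.40 ± 0.19) and St3gal4 (1.47 ± 0.27), which help to build selectin ligands, were higher in NK cells, and the 2 of 6 glycosylation genes called are a share below the 38.7% of all genes. Among the linkers Spn (CD43) was higher (1.59 ± 0.14) and Emb (embigin) lower (-2.41 ± 0.14).

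In non-classical against classical monocytes, 8 of 10 activation genes tested were higher and none lower, against 26.4% of all genes called, with a median of 0.86 against 0.03 for all genes. In the Cured against Relapsed fits, 7 of the 15 listed genes had counts enough in classical and 11 in non-classical monocytes. Some of the 10 may therefore have entered only through non-classical monocytes, so the count and the median are not results about the list. Rap1b was at 732 to 1239 CPM against a mean of 439 ± 57.7 CPM (1.16 ± 0.16), and Ptk2b, a kinase downstream of integrins, was higher by 1.72 ± 0.35. Spn and Itgax passed the count filter only through non-classical monocytes and are given by levels. Spn was at 338 ± 61.0 against 37.3 ± 25.6 CPM and Itgax at 75.6 ± 21.4 against 2.11 ± 4.22 CPM. Emb was lower (-1.90 ± 0.23). In neutrophils against classical monocytes 6 of 11 activation genes were higher and 2 lower, against the background of 71.4% called. Some of these may likewise have entered through a single class. Vasp (3.06 ± 0.27) and Pxn (paxillin, 2.45 ± 0.30) were higher and Rap1a lower (-1.23 ± 0.21), and Cd24a, whose product can act as a P-selectin ligand, was at 671 ± 22.3 against 3.64 ± 7.28 CPM.

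In Ccl5-positive against Ccl5-negative CD8 T cells none of 14 activation genes was called. Itgae, which passed the count filter only through Ccl5-negative cells, was at 3.11 ± 2.45 against 34.1 ± 13.1 CPM. St3gal6 was higher (1.00 ± 0.31, adjusted p = 0.0255), as was Cd48 (0.51 ± 0.14, adjusted p = 0.00793), and Pecam1 (-1.13 ± 0.36, adjusted p = 0.0354) and Cd226 (-0.79 ± 0.25, adjusted p = 0.0355) were lower.

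The likeness of patterns was measured as Pearson's r of log2(CPM + 10) over the 28 sums of 7 classes and 4 libraries, which share libraries and class totals, and is given as a description. Among 4761 genes, those most like Itgam were Tyrobp (r = 0.97), Fcgr3 (0.97) and Xdh (0.96), and those most like Cd44 were Rgs2 (0.97), Neat1 (0.96) and Fes (0.96). Selplg was most like Ctsd (0.92), Fxyd5 and Arrb2, Itgal most like Adgre5 (0.94), Rap1gap2 and Dock5, and Itgb2 most like Ccnd3 (0.93), Cdc42ep3 and Apbb1ip. Itga4 was most like Zmiz1 (0.92), Rbpms and Elmo2, and Itgb7 most like Atp5h (0.86), Lgals1 and Psme2. For Itgb1 the nearest of all genes was Itga4 (0.87), before S100a13 and Ifngr1. Other close pairs within the 8 were Cd44 with Itgam (0.90), Itgal with Itgam (0.87) and Itgal with Itgb2 (0.86), and Itgb7 had its lowest r with Cd44 (-0.29).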

How the data were processed

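Per the submitters' processing notes the libraries were processed with Cell Ranger 3.1.0 against mm10, and per the labels' protocols they were 5′ libraries (kit v1.1) of thawed, sorted live blood cells, so a gene is read near its start. The authors deposited UMI counts per gene and barcode, which are whole numbers and not normalized. Cells with at least 200 genes and at most 10% mitochondrial UMIs were kept. A class needed at least 2 detected markers of its lineage (3 for neutrophils) and at most 1 of another lineage (2 for monocyte and neutrophil markers). B-marker cells with Cdkn2a, GFP_1 or BCR_ABL_1 UMIs (133), T cells with neither or both of the CD4 and CD8 markers (277 and 13) and cells of mixed lineage stayed in no class, and no doublet caller was run. Counts were summed per library and class with at least 10 cells in every library, filtered with filterByExpr, scaled by TMM and tested with edgeR 4.0.16 (quasi-likelihood, robust), with Benjamini-Hochberg adjustment over all genes and a threshold of 0.05. DESeq2 1.42.0, other scalings, gates, thinning to 1000 UMIs per cell and leaving out each library were alternatives, and the scripts were tested on simulated counts. Thinning left out cells with fewer than 1000 UMIs. Named genes are the 8 members, up to 3 genes per list with the smallest p in a comparison described, and the 3 most alike genes per member (mean CPM of at least 20). Replicate numbers did not pair the libraries (correlations in the closing section). The members and gene lists were chosen with earlier results of these data known. Annotation was GENCODE M21. Intervals are exact at 95% and cover counting error only.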

Additional observations from a re-analysis of the deposited data

How the results depend on the processing

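Log2 fold changes and counts under the other settings follow, with class names alone meaning Cured against Relapsed and the cause of each change not tested. With the replicate number as a block, genes called numbered 156 (B), 0 (CD4 T), 36 (CD8 T), 8 (NK), 8 (classical monocyte), 0 (non-classical monocyte) and 0 (neutrophil), and no call of a member changed. Same-numbered libraries of the 2 groups had deviations that correlated between -0.05 and 0.08 per class, so the numbers were not taken as pairs. With DESeq2 the genes called numbered 26 (B, 0 before), 3 (CD8 T, 24 before), 1 (classical monocyte, 11 before) and 0 (non-classical monocyte, 2 before). With no count filter the genes called numbered 176 (B, 0 before), 4 (CD4 T, 0 before), 2 (NK, 0 before) and 3 (neutrophil, 0 before). The sign turned for Selplg in CD4 T (0.02), Itgb2 in CD8 T (0.01), Itgb1 in NK (0.04), Itgb7 in CD8 v CD4 (0.16) and Itga4 in B v CD8 (0.07). Thinning kept only cells with at least 1000 UMIs, 442 of 987 neutrophils among them, so it changed the cells as well as the depth. After thinning the genes called numbered 3 (B, 0 before), 4 (CD8 T, 24 before), 0 (classical monocyte, 11 before), 1 (non-classical monocyte, 2 before), 109 (CD8 v CD4, 221 before), 1128 (NK v CD8, 2270 before), 2351 (B v CD8, 4431 before), 132 (non-classical v classical, 579 before), 809 (neutrophil v classical, 2080 before), 129 (Ccl5 state, 291 before), 16 (B state, 57 before) and 39 (NK state, 83 before). The sign turned for Itgb2 in B (-0.01), Selplg in CD4 T (0.49), Itgb1 in CD8 T (-0.28), Cd44 in non-classical monocyte (0.67), Itgam in non-classical monocyte (0.22), Itgb2 in non-classical monocyte (0.11), Itga4 in neutrophil (-0.17), Itgb2 in neutrophil (-0.37), Itgal in CD8 v CD4 (-0.21), Itgb7 in CD8 v CD4 (0.09) and Itgal in Ccl5 state (-0.23). With 1 more own-lineage marker the genes called numbered 0 (classical monocyte, 11 before) and 1 (non-classical monocyte, 2 before). The sign turned for Itga4 in CD4 T (-0.17), Itgb2 in CD4 T (-0.04) and Itgb1 in NK (0.02). At the 5% mitochondrial limit the genes called numbered 7 (classical monocyte, 11 before). The sign turned for Itga4 in CD4 T (-0.01) and Itgam in classical monocyte (0.00). With library totals only, an alternative chosen after seeing the data, the genes called numbered 2 (CD8 T, 24 before), 6 (classical monocyte, 11 before), 0 (non-classical monocyte, 2 before) and 3954 (NK v CD8, 2270 before). The sign turned for Itgb2 in CD8 T (0.04), Itgb1 in NK (0.02), Itgal in CD8 v CD4 (-0.05), Itgb7 in NK v CD8 (0.12), Itga4 in B v CD8 (0.20) and Selplg in non-classical v classical (0.02). With no library block the genes called numbered 80 (CD8 v CD4, 221 before), 107 (Ccl5 state, 291 before), 2 (B state, 57 before) and 34 (NK state, 83 before).

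Leaving out each library in turn, the genes called ranged from 4 to 1662 (B), from 0 to 7 (CD4 T), from 0 to 229 (CD8 T), from 0 to 196 (NK), from 6 to 24 (classical monocyte), from 0 to 10 (non-classical monocyte), from 0 to 21 (neutrophil), from 99 to 233 (CD8 v CD4), from 375 to 542 (non-classical v classical), from 182 to 252 (Ccl5 state), from 23 to 71 (B state) and from 38 to 68 (NK state). Signs of members, none of them called in these comparisons with all 4 libraries, also turned: Selplg ranged from -0.72 to 0.41 (CD4 T), -0.14 to 0.08 (non-classical v classical) and -0.18 to 0.02 (B state). Cd44 ranged from -0.44 to 0.13 (CD8 T), -0.98 to 0.06 (NK), -1.05 to 0.18 (classical monocyte) and -0.55 to 0.03 (neutrophil). Itgal ranged from -0.43 to 0.10 (classical monocyte) and -0.19 to 0.72 (CD8 v CD4). Itgb2 ranged from -0.08 to 0.17 (CD4 T), -0.25 to 0.28 (CD8 T), -0.43 to 0.15 (non-classical monocyte) and -0.31 to 0.05 (B state). Itgb1 ranged from -0.44 to 0.13 (B), -0.02 to 0.64 (CD8 T), -0.07 to 0.06 (NK), -0.34 to 0.10 (B state) and -0.01 to 0.38 (NK state). Itga4 ranged from -0.19 to 0.50 (CD4 T), -0.75 to 0.04 (NK), -0.06 to 0.32 (neutrophil) and -0.20 to 0.11 (B v CD8). Itgb7 ranged from -0.17 to 0.02 (B), -0.04 to 0.49 (NK), -0.27 to 0.83 (non-classical monocyte), -0.15 to 0.87 (neutrophil), -0.25 to 0.21 (CD8 v CD4) and -0.10 to 0.22 (NK state). Itgam ranged from -0.67 to 0.09 (NK), -0.56 to 0.29 (classical monocyte), -0.01 to 0.24 (neutrophil) and -0.15 to 0.14 (non-classical v classical). Calls of members lost under a setting stand beside the results. A minimum of 20 cells in every library was not fitted separately. It would remove the comparisons that use the classical monocytes (11 cells in Cured replicate 1) and the NK states (11 and 19 cells in the Cured libraries), and every other class and state had at least 20 cells in each library, so its fit is the same by construction. The interactions were run under no alternative. Depth was lowest in non-classical monocytes, classical monocytes and CD4 T cells, with as few as 41960, 49258 and 57259 UMIs in a library, and in the NK cells with Cd27, Xcl1 or Ltb, with 25475.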
